A study of Mus musculus with 6 samples.

Results

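Distal chromosome 2 of the mouse, from 172 to 182 Mb in build mm10, was examined in 4T1 cells, a mouse mammary carcinoma line. The genes described here are the protein-coding genes whose annotated start lies in this window and whose level, averaged over all 6 libraries, was at least 1 FPKM (fragments mapped to a transcript, scaled by its length and by the size of the library, summed over the listed transcripts of a gene). Genes with symbols starting Zfp, Rps, Psm, Atp5 or Mrp, and Aurka, Zbp1, Ctsz and Lama5, were left out by name. Of 26094 genes listed, 117 were protein-coding genes of the window, and 58 of these are the members described here. Another 18 were left out by symbol and 41 averaged under 1 FPKM. The members were thus selected on position, gene class and mean FPKM, and the window itself was drawn with the fold changes between the groups already known. The counts and fold changes below therefore describe the region and support nothing further.

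The tested libraries were Limch1_OE, 4T1 cells stably infected with a lentivirus (pLVX-IRES-neo) carrying mouse Limch1, with 3 libraries, and Vector, 4T1 cells infected with the empty vector, also with 3 libraries. Both groups were thus infected and antibiotic-selected, and uninfected cells were not analysed here. Nothing in the labels tells whether replicate libraries were grown apart or whether a stable line was a clone, so the p-values rest on library-to-library spread that may be technical only. Limch1, an actin-associated protein that activates non-muscle myosin II, stood at 23.96, 23.31 and 25.69 FPKM in Limch1_OE and at 0.25, 0.15 and 0.1 FPKM in Vector, the order that the labels give. All 6 epithelial markers were detected, with sums of 1454 to 1605 FPKM in Limch1_OE libraries, against 1473 to 1543 in Vector libraries, but they did not move alike. Epcam was at 74.33 to 80.61 FPKM in Limch1_OE, against 104.32 to 109.72 in Vector, Cdh1 at 248.80 to 261.96 in Limch1_OE, against 285.33 to 297.49 in Vector, and Krt7 at 256.73 to 289.05 in Limch1_OE, against 199.52 to 227.36 in Vector. The part of this in the members' values was not tested. The leukocyte, fibroblast, endothelial, adipocyte and muscle markers listed were each under 1 FPKM in every library. FPKM is a share of each library, so more RNA per cell and more cells expressing a gene cannot be told apart. The sequencing depth is unknown.

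The region is gene-dense at its telomere side and corresponds to distal human chromosome arm 20q. Its genes share no single pathway. They include the imprinted Gnas locus, which encodes the stimulatory G protein alpha subunit, genes of RNA synthesis and splicing, genes of Golgi and endosome traffic, and, in the middle, a cluster of recently duplicated genes among which many are named as zinc finger proteins. Such clusters in rodents are known for zinc finger repressors that silence transposable elements.

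Most members stood higher in Limch1_OE than in Vector, by small amounts. Of the 58 members, 57 had at least 1 FPKM in at least 3 libraries and were tested, and 25 of these rose, 3 fell and 29 did not pass (limma on log2(FPKM + 1), Benjamini-Hochberg adjusted over all 11842 tested genes, threshold 0.05). Among all tested genes, 20.2% were called higher and 14.4% lower, against 43.9% and 5.26% of the members. Scaled by the trimmed mean of M values, which moved the median of all genes to 0.00, 1856 of all genes were higher and 2083 lower, against 2388 and 1706 without that scaling, and 19 members rose and 3 fell (15.7% and 17.6% of all genes). The median log2 fold change of the tested members was 0.21, against 0.04 over all tested genes, and 45 members had a positive value, a sign that 56.9% of all tested genes shared. In 31 members every Limch1_OE library lay above every Vector library (28.6% of all tested genes), and in 5 every Limch1_OE library lay below (20.5%).

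The count of members that rose depended on how a gene's level was formed and on the filter. It was 13 of 53 when protein-coding transcripts alone were summed, with 3 lower (14.9% and 13.9% of all genes tested that way). It was 6 of 50 when the most abundant transcript stood for the gene, with 2 lower (8.63% and 8.64%). It was also 16 of 58 with no filter on low values, with 3 lower (6.63% and 5.24%), and 16 of 57 without Vector replicate 2, with 3 lower (15.1% and 10.9%).

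Taken library by library, the members' median distance from their own Vector mean was 0.24, 0.19 and 0.21 on the log2 scale in the Limch1_OE replicates, numbered 1 to 3, and -0.01, 0.00 and 0.01 in those of Vector. The same median over all tested genes was 0.04, 0.04 and 0.03 in Limch1_OE and between -0.01 and 0.00 in Vector. The shift was therefore present in each of the 3 Limch1_OE libraries. Of the 57 members, 42, 44 and 46 lay above their Vector mean there, against 27, 30 and 29 in the Vector libraries, which centre on that mean by construction. That count was not made by library for all tested genes, of which 56.9% had a positive log2 fold change.

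**Figure D1:**
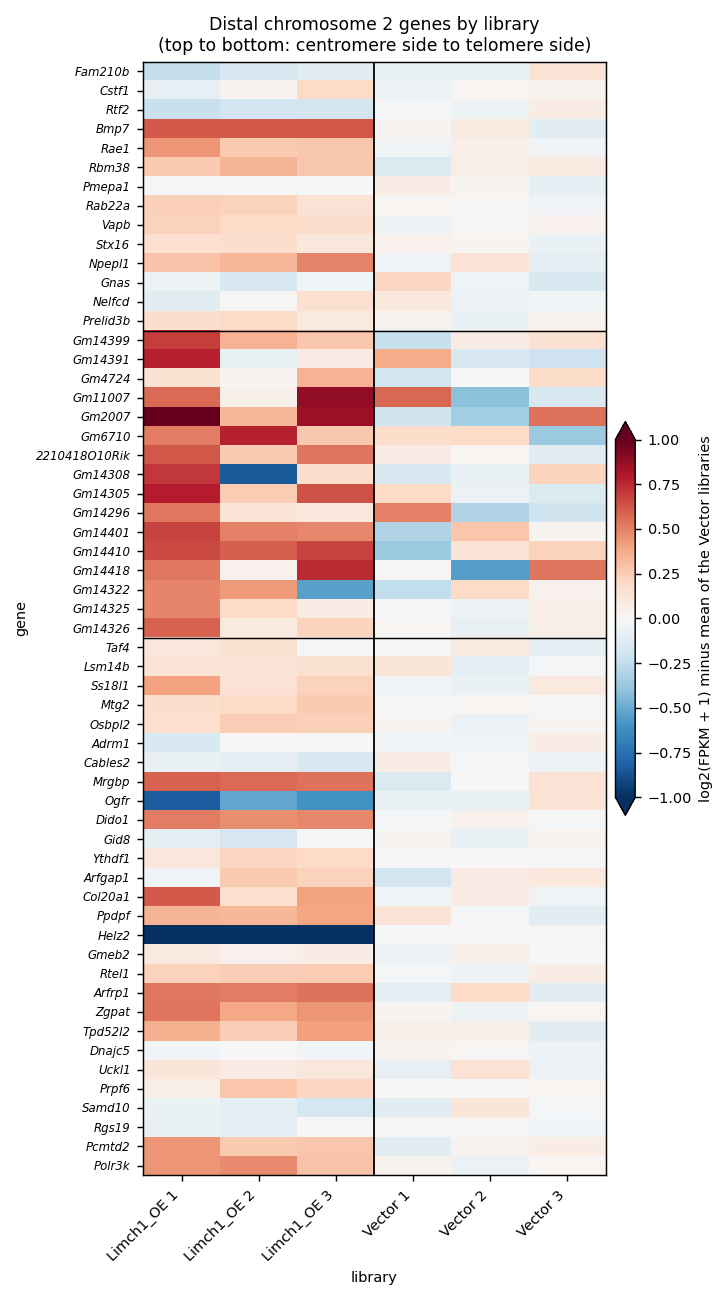
Each row is 1 of the 58 members in chromosomal order and each column a library, Limch1_OE at the left. Colour gives log2(FPKM + 1) minus the mean of the 3 Vector libraries, saturated at 1 in either direction, and black lines bound the middle cluster of Gm and Rik genes. Helz2 and Ogfr are the strong blue rows in Limch1_OE, and several middle rows vary widely between libraries of a group.

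By position the members fell into 3 stretches. The 14 members at the centromere side, from Fam210b to Prelid3b, had a median log2 fold change of 0.15, and 6 rose and 1 fell. The 16 tested members of the middle cluster had a median of 0.44, and 6 rose and none fell, with 10 not passing. The 27 tested members at the telomere side, from Taf4 to Polr3k, had a median of 0.17, and 13 rose and 2 fell. In this order, 42.9%, 37.5% and 48.1% of the stretches' members rose, against 20.2% of all tested genes. The shares that fell were 7.14%, 0% and 7.41%, against 14.4% of all tested genes. All members of the middle cluster but Gm14410 and Gm14325 averaged under 5 FPKM, and the median over all tested genes under that level was 0.09. Gm14410, its most abundant member, had a log2 fold change of 0.65.

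**Figure D2:**
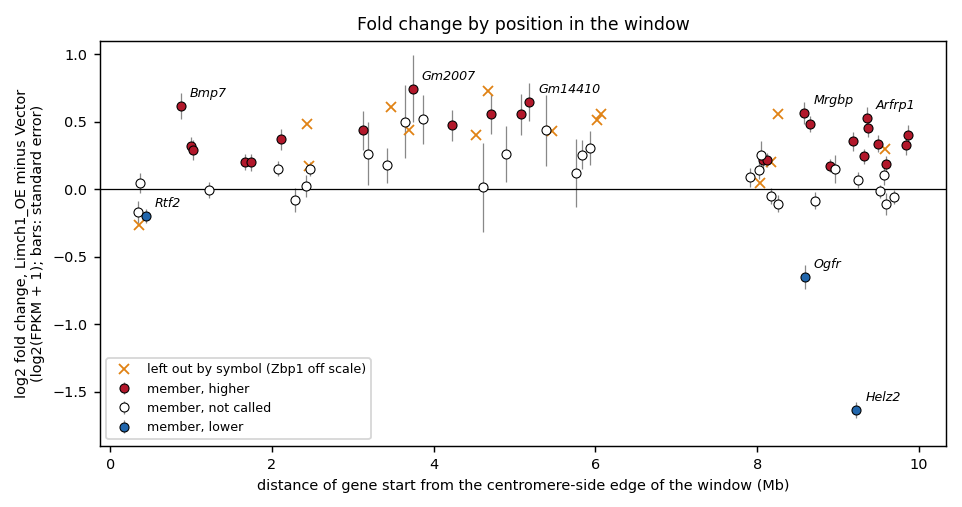
The horizontal axis is the distance of each gene's start from the centromere-side edge of the window in Mb, and the vertical axis the log2 fold change, Limch1_OE minus Vector, with its standard error. Filled red circles are members that rose, filled blue circles members that fell, open circles members that did not pass, and orange crosses genes left out by symbol. Red circles occur along the whole occupied window, while Rtf2, Ogfr and Helz2 are the blue ones.

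The largest role group was RNA synthesis, processing and export, with 14 tested members, of which 7 rose and 1 fell (median log2 fold change 0.18). These were 50% and 7.14%, against 20.2% and 14.4% of all tested genes. Mrgbp (mm10 chr2:180581304-180586304, plus strand), a subunit of the NuA4 histone acetyltransferase complex, was at 11.46, 11.28 and 11.09 FPKM in Limch1_OE and at 6.49, 7.30 and 8.18 FPKM in Vector. The groups were far apart relative to their spread, with a ratio of means of 1.54 and a log2 fold change of 0.57 (SE 0.08, limma adjusted p = 0.00112). Dido1 (chr2:180657964-180709999, minus strand), a nuclear protein that reads methylated histone H3, was at 9.58, 9.25 and 9.35 FPKM in Limch1_OE and at 6.34, 6.64 and 6.31 FPKM in Vector. Its libraries were nearly level within each group (log2 fold change 0.48, SE 0.06, limma adjusted p = 5.42e-04), and protein-coding transcripts carried 98.7% of its FPKM in Limch1_OE and 99.4% in Vector. Zgpat, a G-patch transcriptional repressor, was at 7.52, 6.69 and 7.0 FPKM in Limch1_OE and at 5.0, 4.68 and 4.98 FPKM in Vector (log2 fold change 0.45, SE 0.07, limma adjusted p = 0.00182).

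Rae1 (chr2:173000117-173015739, plus strand), which carries mRNA out through the nuclear pore, was at 40.85, 35.92 and 36.06 FPKM in Limch1_OE and at 29.01, 31.31 and 29.19 FPKM in Vector. It rose by 0.32 on the log2 scale (SE 0.06, limma adjusted p = 0.0051), and kept its call in each of the 16 alternatives tried. Rbm38, an RNA-binding protein induced by p53, was at 11.46, 12.15 and 11.52 FPKM in Limch1_OE and at 8.41, 9.83 and 10.04 FPKM in Vector (log2 fold change 0.29, SE 0.07, limma adjusted p = 0.0176). That call did not hold without Limch1_OE replicate 2 (limma adjusted p = 0.064) or without Vector replicate 1 (0.0582). Exons of Rbm38 overlap 2 annotated genes on the opposite strand, and the use of strand in the counting is not given in the sources used here.

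Ythdf1, a reader of methylated adenosine in mRNA, rose to 32.3 ± 1.18 FPKM in Limch1_OE, against 28.5 ± 0.18 FPKM in Vector (SD, n = 3 each). Its call was lost without Limch1_OE replicate 2 (limma adjusted p = 0.0851) or Vector replicates 1 (0.0668), 2 (0.0611) or 3 (0.0635). Prpf6, a component of the spliceosomal tri-snRNP and 1 of the 4 most abundant members, was at 49.41, 57.45 and 54.67 FPKM in Limch1_OE and at 47.13, 46.73 and 47.72 FPKM in Vector (log2 fold change 0.18, SE 0.06, limma adjusted p = 0.0397). All of its Limch1_OE libraries were higher, but the call was lost in 5 of the 6 fits that left out a library, namely Limch1_OE replicates 2 (adjusted p = 0.138) and 3 (0.0894) and Vector replicates 1 (0.102), 2 (0.104) and 3 (0.0797). Cstf1, a cleavage stimulation factor, Nelfcd, a subunit of the negative elongation factor, the TFIID subunit gene Taf4, Lsm14b, the chromatin remodeller subunit gene Ss18l1 and Gmeb2 did not pass, with log2 fold changes of 0.04, 0.02, 0.09, 0.14, 0.26 and 0.07.

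Helz2 (chr2:181227615-181242027, minus strand), a helicase and transcriptional coactivator gene that interferon induces, was the strongest exception. It was at 7.30, 6.58 and 6.93 FPKM in Limch1_OE and at 23.54, 23.59 and 23.91 FPKM in Vector. The groups lay 3.41-fold apart in favour of Vector, with a log2 fold change of -1.64 (SE 0.06, limma adjusted p = 9.97e-08). Of the nearest members, Ppdpf at its centromere side rose and Gmeb2 at its telomere side did not pass. Ogfr (chr2:180589245-180595836, plus strand), the opioid growth factor receptor gene, was at 25.66, 32.00 and 30.08 FPKM in Limch1_OE and at 44.15, 44.29 and 50.93 FPKM in Vector. It fell by 0.65 on the log2 scale (SE 0.09, limma adjusted p = 7.91e-04), although Mrgbp, whose last annotated base lies just proximal to it, rose. The third member that fell, Rtf2, a factor acting at stalled replication forks, was at 23.25, 23.75 and 23.81 FPKM in Limch1_OE and at 26.92, 26.19 and 28.66 FPKM in Vector (log2 fold change -0.20, SE 0.05, limma adjusted p = 0.0177). Its call was lost without Limch1_OE replicate 2 or Vector replicate 1 (adjusted p = 0.0502 each) and without Vector replicate 3 (0.0627).

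Promoter windows from RefSeq (GRCm38.p6, 250 bases before to 50 after an annotated start) are shown for the pair that fell most and for a member that rose, so that members of the telomere side that moved in opposite directions can be compared. Capitals mark matches on either strand to any of 8 motifs searched, with overlapping matches capitalised together. They were the GC box GGGCGG, the CCAAT box, the ETS-type CCGGAAG, the E-box CACGTG, the YY1-type AAGATGGCG, the TATA box TATAAA, the NRF1-type palindrome of GCGCA joined to TGCGC, and the interferon-response spacing of a GAAA, any 2 bases and another GAAA. The Helz2 window is chr2:181241978-181242277 (minus strand), the Ogfr window chr2:180589157-180589456 (plus strand) and the Dido1 window chr2:180702053-180702352 (minus strand).
Helz2: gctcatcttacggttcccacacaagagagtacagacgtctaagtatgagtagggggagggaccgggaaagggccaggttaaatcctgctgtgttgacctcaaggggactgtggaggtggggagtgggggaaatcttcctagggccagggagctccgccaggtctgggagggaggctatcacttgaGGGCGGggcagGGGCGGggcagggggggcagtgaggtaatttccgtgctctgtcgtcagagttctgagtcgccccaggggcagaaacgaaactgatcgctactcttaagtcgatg
Ogfr: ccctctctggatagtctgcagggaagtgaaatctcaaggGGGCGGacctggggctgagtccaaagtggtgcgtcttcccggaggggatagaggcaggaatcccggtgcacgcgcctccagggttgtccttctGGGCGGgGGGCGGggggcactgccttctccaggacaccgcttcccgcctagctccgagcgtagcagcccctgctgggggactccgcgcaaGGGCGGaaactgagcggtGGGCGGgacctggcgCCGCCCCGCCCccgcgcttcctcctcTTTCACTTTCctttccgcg
Dido1: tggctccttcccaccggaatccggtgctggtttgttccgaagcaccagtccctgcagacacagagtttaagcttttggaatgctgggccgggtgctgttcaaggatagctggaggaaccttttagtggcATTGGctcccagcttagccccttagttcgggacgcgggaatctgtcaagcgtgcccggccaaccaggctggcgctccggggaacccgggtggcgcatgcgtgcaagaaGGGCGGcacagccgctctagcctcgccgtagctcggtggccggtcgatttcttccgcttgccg

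The Ogfr window was the 1 member window, of 45 found, with a match to the interferon-response spacing, and 3.23% of the 8480 windows of tested genes held one. The Helz2 window held no match to it, which says only that these letters are not in that window. It does hold GAAA stretches 1 base apart, a spacing that was not searched. Outside the middle cluster 29 of 34 member windows (85.3%) held the GC box GGGCGG, against 69.3% of the windows of tested genes, and 11 of 34 (32.4%) held CCGGAAG, against 21.1%. The median share of G and C bases was 66.2% in these 34 windows, against 62% in the windows of tested genes. Its part in the motif shares was not tested. These shares are descriptions of letters, not of binding.

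Membrane traffic and lipid transfer had 8 tested members, of which 4 rose and none fell (median log2 fold change 0.18). The share that rose was 50%, while 20.2% of all tested genes rose and 14.4% fell. Arfrp1 (chr2:181357690-181365404, minus strand), an ARF-like GTPase of the trans-Golgi, was at 16.51, 16.34 and 16.67 FPKM in Limch1_OE and at 10.43, 12.92 and 10.27 FPKM in Vector. No library overlapped, at a log2 fold change of 0.53 (SE 0.08, limma adjusted p = 0.00194). Osbpl2, an oxysterol-binding protein relative, rose to 24.5 ± 0.74 FPKM in Limch1_OE, against 20.9 ± 0.73 FPKM in Vector (SD, n = 3 each). The early endosome GTPase gene Rab22a and Vapb, a tether of the endoplasmic reticulum, each rose by 0.20 on the log2 scale (limma adjusted p = 0.0257 and 0.0346). Neither call held in most fits that left out a library, with adjusted p of 0.0542 to 0.0846 for Rab22a in every such fit but that without Limch1_OE replicate 3, and of 0.0577 to 0.124 for Vapb in the same 5. Rab22a stood at 0.06 on protein-coding transcripts alone (limma adjusted p = 0.655) and at 0.05 in its most abundant transcript (0.764), against a log2 fold change of 0.57 in its other transcripts, which was not tested. Osbpl2 lost its call without Limch1_OE replicate 2 (0.0502) or Vector replicate 2 (0.0506). The trans-Golgi SNARE gene Stx16 and the mitochondrial lipid carrier gene Prelid3b lay higher in every Limch1_OE library without passing (log2 fold change 0.15 each, limma adjusted p = 0.0542 and 0.0563), and Arfgap1 (0.15) and the synaptic chaperone gene Dnajc5 (-0.02) overlapped between groups.

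Signalling genes had 7 tested members, of which 2 rose and 1, Ogfr, fell, with a median log2 fold change of -0.06. These were 28.6% and 14.3%, not far from the 20.2% and 14.4% of all tested genes. Bmp7, a ligand of the TGF-beta family, was low but separate, at 2.07, 2.07 and 2.08 FPKM in Limch1_OE and at 1.04, 1.14 and 0.85 FPKM in Vector (log2 fold change 0.62, SE 0.10, limma adjusted p = 0.0018). Its ratio of means, 2.05, was exceeded among members only by that of Gm2007 (2.31), which shares its sequence with relatives. Ppdpf, named for pancreatic progenitor differentiation, was at 15.50, 15.40 and 16.09 FPKM in Limch1_OE and at 13.21, 11.86 and 11.10 FPKM in Vector (log2 fold change 0.35, SE 0.07, limma adjusted p = 0.00511). Gnas, the most abundant member, was at 249.34, 232.28 and 250.43 FPKM in Limch1_OE and at 298.09, 250.08 and 230.12 FPKM in Vector. Its groups overlapped and it did not pass (log2 fold change -0.08, SE 0.09, limma adjusted p = 0.511), and antisense transcripts of the locus overlap its exons. Pmepa1, an inhibitor of TGF-beta signalling, stood at 23.4 ± 0.21 FPKM in Limch1_OE, against 23.6 ± 1.5 FPKM in Vector (SD, n = 3 each), and Rgs19 (-0.06) and Cables2 (-0.11) did not pass either.

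The remaining groups were small. Of 3 protein turnover genes Npepl1, an aminopeptidase-like gene, was at 26.50, 27.48 and 30.76 FPKM in Limch1_OE and at 20.85, 23.89 and 20.14 FPKM in Vector (log2 fold change 0.37, SE 0.08, limma adjusted p = 0.0073). The proteasomal ubiquitin receptor gene Adrm1 overlapped between groups, at 53.60, 59.56 and 60.05 FPKM in Limch1_OE and at 58.63, 57.96 and 62.85 FPKM in Vector (log2 fold change -0.05, SE 0.06, limma adjusted p = 0.533), as did the ubiquitin ligase subunit gene Gid8 (-0.09). Of 4 metabolic and mitochondrial genes, Pcmtd2, a relative of the isoaspartate methyltransferase, was at 12.86, 11.19 and 11.38 FPKM in Limch1_OE and at 8.44, 9.45 and 9.72 FPKM in Vector (log2 fold change 0.33, SE 0.08, limma adjusted p = 0.0115). Mtg2, a GTPase of the mitochondrial ribosome, also rose (0.21), a call lost without Limch1_OE replicates 2 (0.058) or 3 (0.0534) or any Vector library (0.0519 to 0.0706) and turned to -0.02 on protein-coding transcripts alone, while Uckl1 (0.11) and Fam210b (-0.17) did not pass. The telomere helicase gene Rtel1 rose to 13.4 ± 0.13 FPKM in Limch1_OE, against 11.2 ± 0.56 FPKM in Vector (SD, n = 3 each). The other of the 2 genome maintenance genes was Rtf2, which fell.

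The role lists did not place 19 tested members, namely the 16 of the middle cluster, described below, and Polr3k, Tpd52l2 and Samd10. Polr3k (chr2:181864337-181870830, plus strand), a subunit of RNA polymerase III and the most telomeric member, was at 8.31, 8.5 and 7.35 FPKM in Limch1_OE and at 6.02, 5.56 and 5.95 FPKM in Vector (log2 fold change 0.40, SE 0.07, limma adjusted p = 0.00409). Tpd52l2, of the tumour protein D52 family, was at 33.30, 30.90 and 34.60 FPKM in Limch1_OE and at 26.81, 26.90 and 23.96 FPKM in Vector (log2 fold change 0.34, SE 0.06, limma adjusted p = 0.00471). Samd10 did not pass (-0.11). The collagen gene Col20a1, the 1 member placed under adhesion and matrix, reached 1 FPKM in 2 libraries and was not tested (1.65, 0.95 and 1.29 FPKM in Limch1_OE, against 0.68, 0.83 and 0.69 FPKM in Vector).

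**Figure D3:**
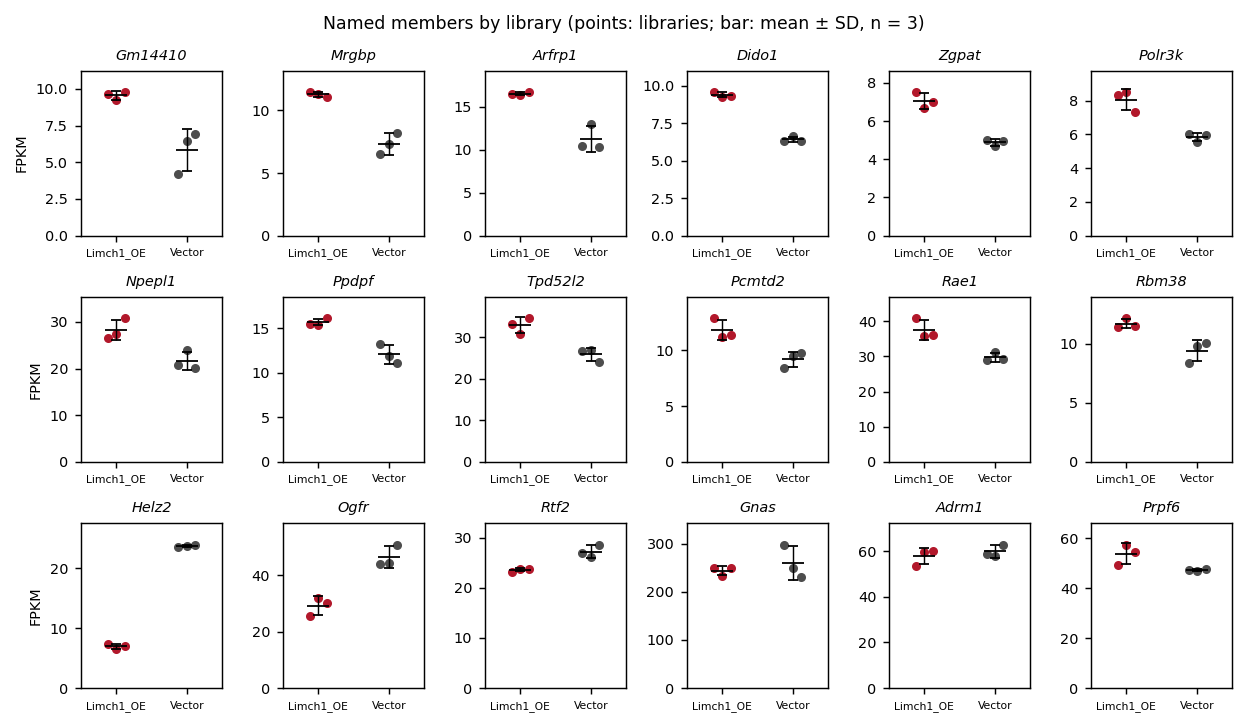
FPKM of the 18 members named by a fixed rule, with 1 panel per gene, Limch1_OE at the left and Vector at the right, points for libraries and bars for the mean and SD (n = 3). Each vertical axis starts at 0, which shows how small most shifts are beside the level, as for Rae1 at 37.6 FPKM in Limch1_OE, against 29.8 FPKM in Vector. Helz2 and Ogfr go the other way, and Gnas and Adrm1 overlap.

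For several members that rose, the extra FPKM lay in transcripts annotated as retained introns rather than in protein-coding ones. In Npepl1 the retained-intron transcripts were at 11.33, 13.15 and 13.79 FPKM in Limch1_OE and at 4.79, 9.53 and 2.96 FPKM in Vector, while the protein-coding transcript was at 14.17, 13.51 and 15.81 FPKM in Limch1_OE and at 15.53, 13.56 and 16.69 FPKM in Vector. Retained-intron FPKM was separate between groups and protein-coding FPKM overlapped, with a log2 fold change of -0.07 for the protein-coding transcript alone (limma adjusted p = 0.605). In Arfrp1 retained-intron transcripts were at 7.22 ± 1.06 FPKM in Limch1_OE, against 3.46 ± 1.6 FPKM in Vector, and protein-coding ones at 5.61 ± 1.74 FPKM in Limch1_OE, against 5.19 ± 1.09 FPKM in Vector (SD, n = 3 each). In Rtel1 the protein-coding sum also overlapped, with retained-intron FPKM of 5.88 ± 0.52 in Limch1_OE, against 3.65 ± 0.56 in Vector, and protein-coding FPKM of 7.36 ± 0.46 in Limch1_OE, against 7.35 ± 0.99 in Vector (SD, n = 3 each). That sum joined Rtel1 transcripts that differed in direction. The most abundant one, which is protein-coding, was at 3.87, 4.06 and 4.08 FPKM in Limch1_OE, against 2.73, 3.07 and 3.27 FPKM in Vector, and kept the call by itself. The next protein-coding one was at 2.43, 2.33 and 1.08 FPKM in Limch1_OE, against 2.58, 2.47 and 2.38 FPKM in Vector. In Zgpat protein-coding transcripts held 6.98% of the FPKM in Limch1_OE and 13.4% in Vector, too little to be tested alone.

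Other members rose in protein-coding transcripts too. With these alone, the calls of Dido1 (log2 fold change 0.47), Polr3k (0.39), Rae1 (0.30), Tpd52l2 (0.29), Pcmtd2 (0.30), Ppdpf (0.51) and Gm14410 (0.65) held, while Mrgbp (0.59, limma adjusted p = 0.0755), Arfrp1 (0.07, adjusted p = 0.82), Rbm38 (0.17, adjusted p = 0.461), Prpf6 (0.19, adjusted p = 0.056), Rab22a (0.06, adjusted p = 0.655), Gm14399 (0.44, adjusted p = 0.0641) and Gm2007 (0.74, adjusted p = 0.0766) did not pass. When the most abundant transcript stood for the gene, fewer calls held, namely those of Bmp7, Rae1, Osbpl2, Dido1, Rtel1 and Polr3k. The log2 fold changes were then 0.01 for Tpd52l2 (limma adjusted p = 0.976), 0.05 for Pcmtd2 (0.909), 0.11 for Ppdpf (0.665), 0.43 for Gm14410 (0.246), 0.00 for Arfrp1 (0.99) and 0.71 for Mrgbp (0.0547), none of which passed. For Tpd52l2, Pcmtd2 and Ppdpf the mean rise was thus nearly gone in the most abundant transcript. That transcript is protein-coding in Tpd52l2 and Pcmtd2, but is annotated as a retained intron in Ppdpf, and also in Mrgbp. In Pcmtd2 that transcript was at 4.96, 9.37 and 10.71 FPKM in Limch1_OE, against 7.23, 7.45 and 8.33 FPKM in Vector. Only Limch1_OE replicate 1 was thus low. Another protein-coding transcript of Pcmtd2 was at 6.74, 1.47 and 0.0 FPKM in Limch1_OE, against 0.78, 1.67 and 1.2 FPKM in Vector. The protein-coding transcripts of Ppdpf summed to 7.5 ± 0.29 FPKM in Limch1_OE, against 5.04 ± 1.19 FPKM in Vector (SD, n = 3 each). Summed over all members, retained-intron transcripts held 6.44%, 6.23% and 6.26% of FPKM in Limch1_OE and 3.79%, 5.15% and 3.58% in Vector, a ratio of summed FPKM of 1.57. The mean sums were 64.2 FPKM in Limch1_OE and 40.8 FPKM in Vector, and a few genes weigh on them. Npepl1 gave 12.8 FPKM in Limch1_OE and 5.76 FPKM in Vector, and Arfrp1 7.22 and 3.46 FPKM. Over all genes listed the shares were 3.71%, 3.25% and 3.48% in Limch1_OE and 3.38%, 3.26% and 3.46% in Vector, a ratio of 1.05. Unlike the members, that set was not limited to protein-coding genes or by mean FPKM, so the 2 sets are not matched. Protein-coding FPKM summed over the members was 908 ± 14.7 in Limch1_OE, against 901 ± 32.4 in Vector (SD, n = 3 each), a sum that Gnas dominates. Among 45 members with both kinds of transcript, the other classes changed more upward than the protein-coding ones in 31 (68.9%), against 60.5% of 8394 tested genes. How the authors' quantification divided reads between transcripts of a gene is not given in the sources used here, and its part in these differences was not tested.

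**Figure D4:**
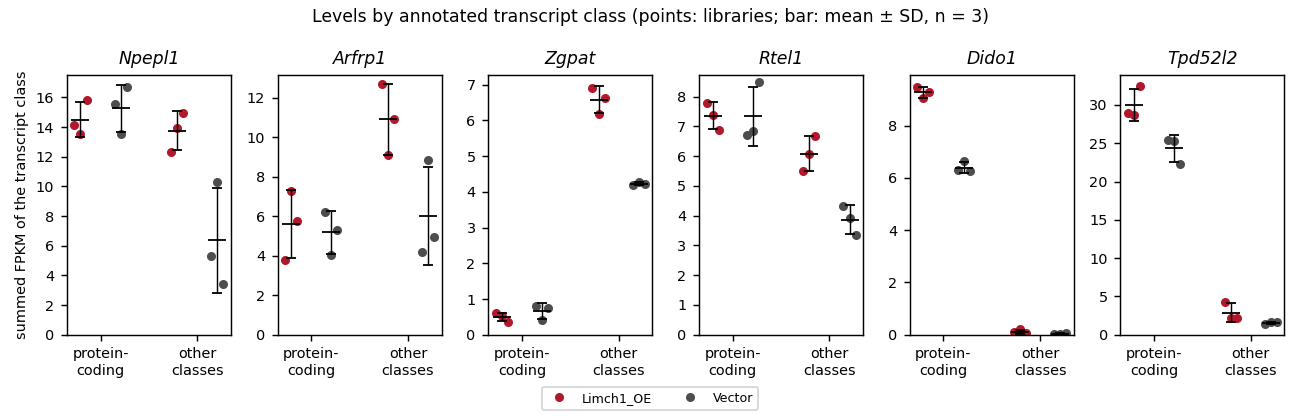
Summed FPKM of the protein-coding transcripts and of all other annotated classes for 6 members that rose, Limch1_OE in red at the left of each pair and Vector in grey at the right, with bars for the mean and SD (n = 3). In Npepl1, Arfrp1, Zgpat and Rtel1 the groups overlap in the sum of protein-coding transcripts, and in Dido1 and Tpd52l2 they are separate there.

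Members were part of 5 pairs whose genes point away from each other with annotated gene starts within 1000 bases, and in 2 of these both genes rose. Arfrp1 and Zgpat, on opposite strands, overlap at their 5' ends with starts 476 bases apart, and both rose. Prpf6 rose beside Zfp512b (0.30), which also rose, and their annotated gene starts lie 935 bases apart. The most abundant Prpf6 transcript, however, starts further inside the gene (mm10 chr2:181591868-181655660), in the promoter window chr2:181601069-181601368. The expressed starts of this pair are thus not close. Dido1 and Gid8 have annotated starts 118 bases apart, but the most abundant Dido1 transcript starts inside the gene, near the window printed above, and Gid8 did not pass (17.12, 16.24 and 18.40 FPKM in Limch1_OE, against 18.77, 17.49 and 18.83 FPKM in Vector). Cstf1 (0.04) did not pass beside Aurka, which starts 146 bases away and fell by 0.27, nor did Ss18l1 (0.26, limma adjusted p = 0.0812) beside Psma7 (0.04), 76 bases away. Without knowledge of strand, reads from overlapping exons of Arfrp1 and Zgpat cannot be told apart, and 42.7% of the distinct 50-base stretches of Zgpat transcripts also occur in transcripts of other genes, chiefly Lime1. The window of Arfrp1, chr2:181365355-181365654 on the minus strand, is printed as that of a member in such a pair, and held 3 GC boxes and 1 CCGGAAG match.
Arfrp1: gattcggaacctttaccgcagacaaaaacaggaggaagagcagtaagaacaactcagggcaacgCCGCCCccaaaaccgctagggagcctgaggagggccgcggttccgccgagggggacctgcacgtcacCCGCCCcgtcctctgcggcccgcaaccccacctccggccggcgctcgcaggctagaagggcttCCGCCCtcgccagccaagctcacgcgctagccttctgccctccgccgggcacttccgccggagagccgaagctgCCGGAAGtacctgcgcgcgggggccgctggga

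The middle cluster held 15 members with Gm symbols and 2210418O10Rik, all with positive log2 fold changes between 0.01 and 0.74. The sign was not stable in every one, since it turned under 8 of 13 alternatives for Gm14308, under 4 of 15 for Gm14322 and under 1 of 15 each for Gm14296 and Gm11007. Gm14410 (chr2:177183453-177206421, minus strand), the most abundant of them, was at 9.67, 9.22 and 9.78 FPKM in Limch1_OE and at 4.21, 6.43 and 6.92 FPKM in Vector. It was even across Limch1_OE and variable across Vector, with a log2 fold change of 0.65 (SE 0.14, limma adjusted p = 0.00838). Gm14305 was at 4.35, 2.69 and 3.82 FPKM in Limch1_OE and at 2.55, 1.98 and 1.81 FPKM in Vector (log2 fold change 0.56, SE 0.15, limma adjusted p = 0.0194). The others that rose were Gm2007 (0.74), Gm14401 (0.55), 2210418O10Rik (0.47) and Gm14399 (0.44). Of these 6 only Gm14410 kept its call in every fit that left out a library. Gm14305 lost it without Limch1_OE replicates 1 (limma adjusted p = 0.0593) or 3 (0.055) or Vector replicates 2 (0.0569) or 3 (0.0651). Gm14401 lost it without Limch1_OE replicate 1 (0.066) or Vector replicate 1 (0.0545), and 2210418O10Rik without Vector replicate 3 (0.0507). Gm2007 lost it without either replicate 1 (0.141 for Limch1_OE and 0.128 for Vector), without Limch1_OE replicate 3 (0.113) or without Vector replicate 2 (0.139), and Gm14399 without any library but Limch1_OE replicate 3 (0.0519 to 0.142). Gm2007 was called although its libraries overlapped, at 2.9, 1.39 and 2.44 FPKM in Limch1_OE and at 0.65, 0.5 and 1.76 FPKM in Vector.

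Members of this cluster are near-copies, and their single values carry that limit. Between 35.8% and 100.0% of the distinct 50-base stretches of each member's annotated transcripts also occur in transcripts of other genes, and 2210418O10Rik, Gm2007 and Gm11007 have no stretch of their own. How reads shared by copies were assigned is not described, so a rise of 1 copy cannot be told apart from that of a relative. Values within a group scattered widely, as for Gm14308 at 2.19, 0.09 and 1.2 FPKM in Limch1_OE, against 0.76, 0.85 and 1.28 FPKM in Vector. Gm14322 likewise was at 6.44, 6.13 and 2.64 FPKM in Limch1_OE, against 3.48, 5.11 and 4.47 FPKM in Vector. Gm6710 reached 1 FPKM in all 3 Limch1_OE libraries and in no Vector library, so it was tested only through the group in which it was higher (log2 fold change 0.52, limma adjusted p = 0.0557). Gm2007 and Gm14401, which were called, reached it in all 3 Limch1_OE libraries and in 1 Vector library. They too entered the test mainly through the group in which they were higher.

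The promoter windows of the cluster show the same kinship. All 11 found held CCAAT, which 39.4% of the windows of tested genes and 41.2% of the other member windows held, and none held the GC box. The median share of G and C bases in these 11 was 48.3%. In global alignments, the 11 windows were a median of 75.1% identical over 55 pairs, against 50.9% over 561 pairs of the other members, and those of Gm4724 and Gm14308 were identical throughout. The windows begin at different points of the sequence that the genes share, which lowers these values. Gm14410 and Gm14305 made the lowest pair, at 54%, although the windows printed below share a long stretch that is shifted between them. A set of 3 is printed, for Gm14410 (chr2:177206447-177206746, minus strand) and Gm14305 (chr2:176708103-176708402, plus strand), which rose, and for Gm4724 (chr2:175435728-175436027, minus strand), which did not pass (1.27, 1.09 and 1.6 FPKM in Limch1_OE, against 0.8, 1.05 and 1.32 FPKM in Vector). Capitals mark the CCAAT box on either strand, found 2 times in each.
Gm14410: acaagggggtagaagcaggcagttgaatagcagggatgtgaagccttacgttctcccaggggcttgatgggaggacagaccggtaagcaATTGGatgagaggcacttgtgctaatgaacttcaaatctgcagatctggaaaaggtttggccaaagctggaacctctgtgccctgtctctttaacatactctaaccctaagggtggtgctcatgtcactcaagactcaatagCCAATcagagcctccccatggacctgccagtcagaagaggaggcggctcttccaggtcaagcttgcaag
Gm14305: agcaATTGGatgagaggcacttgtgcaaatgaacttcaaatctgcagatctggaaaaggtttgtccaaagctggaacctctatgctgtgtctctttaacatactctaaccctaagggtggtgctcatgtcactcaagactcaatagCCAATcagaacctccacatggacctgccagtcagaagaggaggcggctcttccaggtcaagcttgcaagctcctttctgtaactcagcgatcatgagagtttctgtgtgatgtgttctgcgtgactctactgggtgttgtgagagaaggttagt
Gm4724: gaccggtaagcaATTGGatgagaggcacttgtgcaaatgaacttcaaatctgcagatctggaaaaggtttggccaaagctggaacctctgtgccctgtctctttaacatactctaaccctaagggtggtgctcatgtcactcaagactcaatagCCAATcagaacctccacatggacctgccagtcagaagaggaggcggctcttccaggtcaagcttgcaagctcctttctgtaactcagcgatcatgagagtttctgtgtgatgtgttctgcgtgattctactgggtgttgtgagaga

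The edge of the selection divided genes of similar level. Of the 41 genes under it, 33 had a positive log2 fold change, and 20 averaged under 0.1 FPKM. Just under the mean of 1 FPKM were Tcea2 (0.993) and Gm14434 (0.970), with log2 fold changes of 0.49 and 0.10, and just above it were Col20a1 (1.01) and Gm14308 (1.06), with 0.40 and 0.01. Of the 15 tested genes left out by symbol, 10 rose and 2 fell, namely Aurka (-0.27) and the interferon-induced nucleic acid sensor gene Zbp1 (-3.58). Among them 7 of 8 Zfp genes, Rps21 (0.56), Ctsz (0.48) and Lama5 (0.20) rose.

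Set along the chromosome, the whole window with its left-out genes had 73 tested protein-coding genes, of which 47.9% rose and 6.85% fell, with a median log2 fold change of 0.26. The adjoining 10 Mb at the centromere side, from 162 to 172 Mb, had 63, of which 11.1% rose and 11.1% fell, with a median of -0.01. Over the 768 tested genes of chromosome 2 outside the window the median was 0.08, and 24.0% rose and 8.59% fell. The window was not alone in its share of higher genes, since the bins from 52 to 62 Mb and from 62 to 72 Mb had 42.1% of 19 and 42.9% of 28 genes higher, with medians of 0.22 and 0.16. No test of the window against these bins was made, because the window was chosen with these values known.

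**Figure D5:**
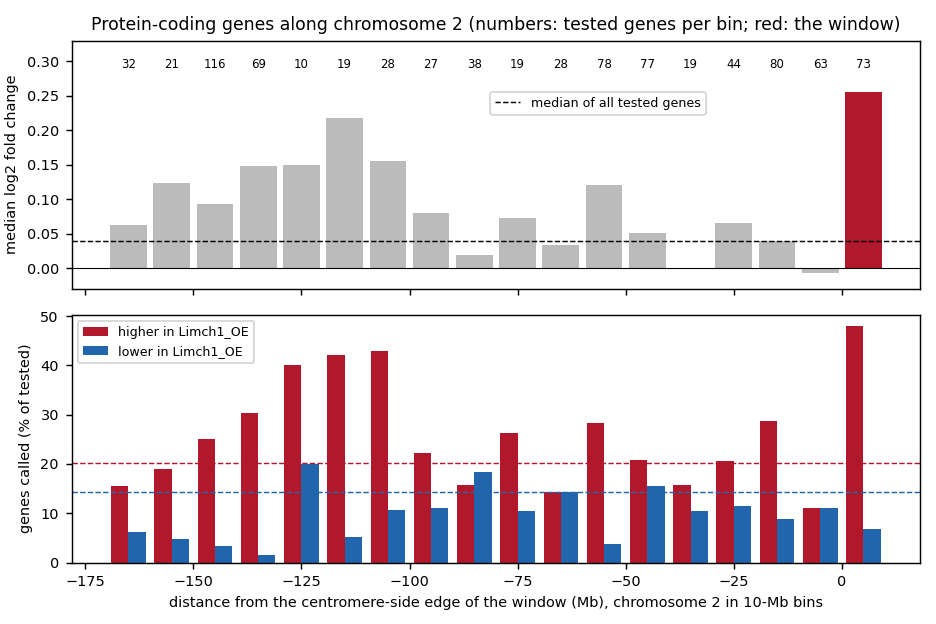
Tested protein-coding genes of chromosome 2 in 10-Mb bins, placed by distance from the centromere-side edge of the window, with the window in red in the upper panel. The upper panel gives the median log2 fold change, Limch1_OE minus Vector, and the lower panel the percent of tested genes called higher (red) and lower (blue), with dashed lines for all tested genes. The window's median of 0.26 stands beside -0.01 in the bin just before it.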

How the data were processed

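Messenger RNA of 6 libraries from 4T1 cells (3 Limch1_OE, 3 Vector) was measured by RNA sequencing, with groups and replicate numbers taken from the sample titles. The deposited table gives FPKM per transcript for each library, and build mm10 and the tools StringTie 2.2.1, featureCounts 2.0.1, STAR 2.7.10 and fastp 0.23.2 are listed, without roles, by the submitters' processing notes. For depth, annotation release, strand and reads with several matches, the setting is not given in the sources used here. Low values showed no whole-read steps, so no count test was run.

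The 77865 listed transcripts were summed per gene and annotated from GENCODE M21 (mm10), which matched 26033 of 26094 gene identifiers. A gene entered the test if 3 or more libraries reached 1 FPKM, and limma 3.58.1 (R 4.3.3, with an intensity trend) compared log2(FPKM + 1) between groups, as Limch1_OE minus Vector in a two-sided test, Benjamini-Hochberg adjusted over all tested genes. This scale understates changes of low genes. The script was tested on simulated data. Values with every library were named for the 12 highest and 12 lowest called members averaging at least 5 FPKM (3 were low), the 4 most abundant members and Helz2; others were named to fill role groups. The members, lists and tests were chosen with earlier results of these data known. Promoter windows came from RefSeq (GRCm38.p6), matched by symbol for 45 of 57 tested members and taken nearest the start of the most abundant transcript. The RefSeq start lay within 100 bases of that transcript's start for 36 of the 45. It lay 3663 bases away for Gm2007, 1501 for Mrgbp, 269 for Cstf1, 248 for Dido1 and 162 for Ogfr. For the other members it lay at most 140 bases away. Some windows may thus not be the promoter of the expressed transcript. Alternatives covered the pseudocount, filter, scaling, transcript choice, variance trend, replicate number, window and each library.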

Additional observations from a re-analysis of the deposited data

How the results depend on the processing

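The number of members that rose (25 of 57) was 16 with no filter on low values, 6 with the most abundant transcript per gene, 13 with protein-coding transcripts alone, and 16 to 25 when a library was left out (16 without Vector replicate 2). The proximal 5 Mb of the window held 10 of the 25 and the distal 5 Mb 15. The number that fell (3) was 5 with the left-out symbols restored, 1 in the proximal 5 Mb, and 2 to 3 when a library was left out. The members' median log2 fold change of 0.213 was 0.233 with a pseudocount of 0.1, 0.152 with a filter at a mean of 5 FPKM, 0.192 with quantile normalization, 0.174 under trimmed-mean scaling, 0.158 with the most abundant transcript and 0.15 with protein-coding transcripts. It was 0.185 to 0.243 when a library was left out, 0.249 with the left-out symbols restored, 0.152 for members averaging at least 5 FPKM, 0.231 in the proximal 5 Mb and 0.152 without Gm and Rik genes. It stayed positive under each of these. Of all tested genes 4094 were called, and 1996 with the most abundant transcript. Under trimmed-mean scaling, 1856 genes were higher and 2083 lower, against 2388 and 1706, while members split 19 and 3. Fold changes reversed for Npepl1 (-0.0675 with the most abundant or the protein-coding transcript), for Gnas (-0.0804, and -0.162 to 0.0236 when a library was left out, positive without Vector replicate 1), and for Adrm1 (-0.0511, 0.00148 with quantile normalization, and -0.0799 to 0.000691 when a library was left out, positive without Limch1_OE replicate 1). Of 287 recomputed values of the 18 named members, 253 kept direction and call and 29 lost the call. The alternatives on protein-coding transcripts and on Gm and Rik genes were chosen after seeing the data. Except where transcripts or genes were removed by the alternative itself, the cause was not tested. Same-numbered libraries of the groups did not deviate together (correlations -0.00172, 0.0456 and 0.0592, and not every library was closest to its own number), and the replicate block gave 25 members higher, 3 lower and 3808 genes called. Only 23 of the 25 higher calls were kept under it, since Vapb (limma adjusted p = 0.0653) and Gm14399 (0.0838) lost theirs and 2 other members gained one. Unknown depth sets the precision of the low Gm genes.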
